A study of Mus musculus with 29 samples.

Results

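The effect of treadmill training on top of calorie restriction was examined in skeletal muscle (SkM), using the 3 libraries of restricted and trained mice (CREX) and the 3 libraries of restricted, sedentary mice (CR). These are 6 of the 29 RNA-seq libraries of the study, chosen by their labels alone, and each came from the gastrocnemius, a mixed calf muscle, of 1 mouse. All mice were male wild-type C57BL/6J, 8 weeks old at the start and studied for 8 weeks, with food in the restricted groups brought down stepwise to 70% of free intake and running at 12 m/min for 1 h on 5 days a week. Tissue was taken 24 h after the last run and after a 6 h fast, so the values describe a trained muscle at rest and not the hours after a bout. The other muscle groups were freely fed, sedentary (control, 4 mice) or trained (EX, 4 mice), and brown adipose tissue (BAT) was collected from the same 4 kinds of mice.

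Skeletal muscle is built of slow fibres, rich in mitochondria and fitted with their own set of myosin, troponin and calcium pump proteins, and of fast fibres, which rely more on glycolysis. Endurance training is known to act through calcium signalling, in which the phosphatase calcineurin drives NFAT factors to slow fibre genes, and through the coactivator PGC-1α and the PPAR receptors, which govern mitochondria and fat oxidation. Restriction of food lowers insulin and IGF-1 signalling and raises fat use, so genes of these pathways were grouped into lists and described together.

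The 6 libraries held between 23062654 and 23425284 counts, with 17006 to 18126 genes above 0, and a gene with 3 counts stood at 0.128 to 0.130 CPM, the counts scaled to a fixed library size. Their logged counts correlated with each other at 0.975 to 0.988. The labelled tissue was checked against 12 muscle fibre markers, and all 12 were present, none below 634 CPM in any library. Myh4, the myosin of the fastest fibres, stood at 33976, 48990 and 37783 CPM in CREX replicates 1 to 3 and at 35058, 38627 and 37022 CPM in CR replicates 1 to 3. Mb, the oxygen store myoglobin, stood at 4374 CPM in CREX replicate 1 and at 634 and 981 CPM in the other CREX libraries, against 2634 to 3208 CPM in the CR group.

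A principal component analysis of the 500 most variable genes put 71.7% of the variance on its first axis, which did not separate the groups (exact permutation test on scores, two-sided, p = 0.2, where 3 against 3 libraries cannot give less than 0.1). CREX replicates 2 and 3 lay together at one end, with scores of 32.8 and 34.8, while CREX replicate 1, at -11.3, lay among the CR libraries, which ran from -27.3 to -5.34. The second component carried 10.7% and did not separate the groups either (exact permutation p = 0.8). The genes with the largest loadings on the first component included Myh7, the slow myosin heavy chain, and Alb, the albumin of hepatocytes, and both kinds of gene are described below (named after their values were seen).

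**Figure D1:**
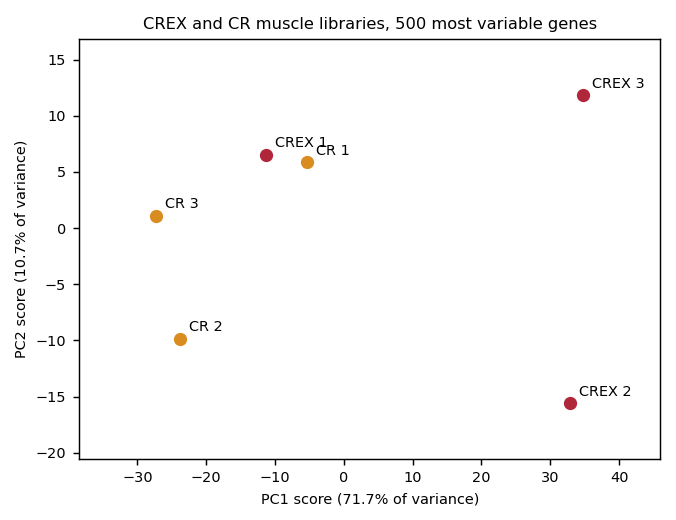
Principal component scores of the 3 CREX (red) and 3 CR (orange) muscle libraries on the first (x axis, 71.7% of the variance) and second (y axis, 10.7%) component, computed on the 500 most variable genes. CREX replicates 2 and 3 sit at the right and CREX replicate 1 sits on the side of the CR libraries.

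No gene was called between CREX and CR muscle by edgeR. Of 13068 genes tested, 0 were DEGs (differentially expressed genes, defined by more than 1.5-fold difference together with a p under 0.05 after Benjamini-Hochberg adjustment), the smallest adjusted p being 0.999. At an unadjusted p under 0.05 without a fold minimum, 249 genes were higher in CREX (1.91% of those tested) and 228 were lower (1.74%). With the fold minimum added, 128 genes were higher (0.979%) and 183 lower (1.40%). DESeq2, the tool of the study, called 8 genes higher (0.0612%) and 9 lower (0.0689%) in the same 6 libraries. Fitted with the control and EX libraries as well, it called 15 higher (0.110%) and 19 lower (0.140%), and 13 genes were called in both DESeq2 fits.

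The number of edgeR calls changed with 1 library, the CREX library that lay among the CR libraries on the first component. Without CREX replicate 1, edgeR called 99 DEGs among 13367 genes, 15 higher (0.112%) and 84 lower (0.628%), while leaving out any of the other 5 libraries gave 0. Of these 99, 9 belonged to the list of 14 slow fibre genes, 4 to the 20 PPAR targets and 3 to the 29 genes of fatty acid oxidation and uptake. Another 3 calls fell in the 21 mitochondrial biogenesis regulators. The calls in these lists were all lower in CREX, as were most of the 99. Of 32 myokines 3 were called, 1 higher and 2 lower. That component and this count draw on the same libraries, so neither is separate support for the other. CREX replicate 1 was not set aside in what follows, and values are given for every library.

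Slow fibre genes had the largest median difference of the function lists. All 14 listed genes were detected and all 14 had a fitted level below CR, as did 50.3% of all genes tested, and their median log2 fold change was -2.32 against -0.0017 over all genes. The slow fibre median was -3.84 without CREX replicate 1 and -1.85 without CREX replicate 3. None was a DEG by edgeR, 6 were lower at an unadjusted p under 0.05 (1.74% of all genes), and in 10 the 3 CREX libraries lay below the 3 CR libraries without overlap, as in 3.42% of all genes. The opposite order without overlap was seen in 4.44% of all genes. In bulk muscle, fewer slow fibres in the piece taken and less slow fibre RNA per fibre cannot be told apart.

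Among the contractile proteins, Myh7 (chr14:54970684-54994626, GRCm38), the motor of slow fibres, stood at 110, 6.24 and 0.119 CPM in CREX replicates 1 to 3 and at 406, 747 and 578 CPM in CR replicates 1 to 3. The groups did not overlap, but as ratios the CREX libraries differed from each other by far more than the CR libraries did. The log2 fold change of -3.89 carried an SE (standard error) of 1.81 (edgeR unadjusted p = 0.0771, adjusted p = 0.999). Tnni1, the inhibitory troponin of slow fibres (named after its values were seen), stood at 16.4, 1.48 and 0.595 CPM in CREX and at 87.7, 104 and 74.0 CPM in CR (log2 fold change -3.85, SE 1.17, edgeR unadjusted p = 0.0181, adjusted p = 0.999). Its partners Tnnt1 and Tnnc1, which hold the troponin complex to tropomyosin and bind calcium, had log2 fold changes of -3.21 and -3.71. The slow myosin light chain Myl2 had one of -2.77.

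Tpm3 (chr3:90072651-90100902), the slow form of tropomyosin, was the slow fibre gene with the smallest p. It averaged 31.1 ± 24.5 CPM (SD, n = 3) in CREX, with 59.2, 14.3 and 19.8 CPM in the single libraries, and 199 ± 22.7 CPM (SD, n = 3) in CR, with 188, 225 and 185 CPM. The groups lay apart, with every CREX library far under the lowest CR library, and the log2 fold change of -2.68 (SE 0.55) had an edgeR adjusted p of 0.999 and a DESeq2 adjusted p of 0.0173. Atp2a2 (chr5:122453513-122502225), the calcium pump of slow fibres, stood at 77.2, 19.99 and 16.6 CPM in CREX and at 208, 277 and 314 CPM in CR (log2 fold change -2.81, SE 0.65, edgeR adjusted p = 0.999, DESeq2 adjusted p = 0.0504). DESeq2 fitted on all muscle groups called it (adjusted p = 0.0120).

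CREX replicate 1 lay above CREX replicates 2 and 3 in all 14 slow fibre genes, and below all CR libraries in 10 of them. In CREX replicates 2 and 3 all 14 genes lay below every CR library and also below every control and EX library. Summed over the list, CREX libraries held 2154, 396 and 465 CPM, CR libraries 3059 to 3530 CPM and control libraries 2902 to 3872 CPM. The EX libraries ran from 1949 to 3696 CPM, and EX replicate 1 had the lowest Myh7 of the freely fed groups, 14.5 CPM against 164 to 680 CPM in the other EX libraries. The share of red and white muscle in the pieces taken was not measured, and its part in these values was not tested.

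**Figure D2:**
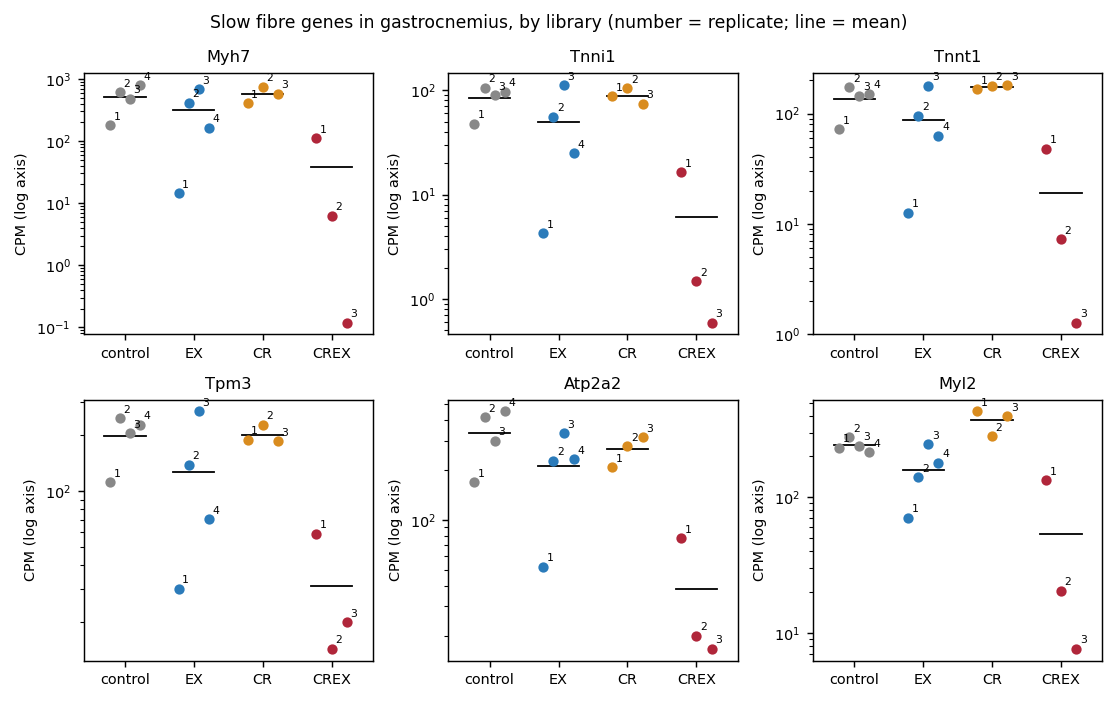
Levels of 6 slow fibre genes (y axis, CPM on a log axis) in the control, EX, CR and CREX muscle libraries (x axis), with a point per library marked by its replicate number and a line at the mean. CREX replicates 2 and 3 lie below all other groups in each panel, CREX replicate 1 lies between them and the CR libraries, and EX replicate 1 is the lowest of its group.

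The genes of fast fibres did not shift with them. The median log2 fold change of the 16 listed fast fibre genes was 0.0012, 8 lay above and 8 below 0, and none had an unadjusted p under 0.05. Actn3, the actin anchor of fast fibres, stood at 9332, 16792 and 16080 CPM in CREX and at 14223, 10726 and 9158 CPM in CR, with the groups overlapping (log2 fold change 0.30, edgeR adjusted p = 0.999). Myh2, the myosin of the intermediate and oxidative fast fibres, was the most uneven member. It stood at 2836, 257 and 207 CPM in CREX replicates 1 to 3 and at 1068, 1680 and 2217 CPM in the CR libraries, so that CREX replicate 1 was the highest of the 6 libraries and the other 2 CREX libraries the lowest.

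Promoter sequences of slow fibre genes were read from RefSeq (GRCm38.p6), in windows from 250 bases before to 50 after the start. MEF2 factors bind an A/T-rich motif and are known partners of calcineurin signalling in slow fibres. Of the 14 slow fibre genes, 13 had a window, with 18 windows in all. Myoz2 and Casq2 were the 2 genes whose window held the MEF2 motif on either strand. The motif was thus in 2 of these 18 windows and in 3.19% of all 32851 windows. These sequences are shown for that reason, as the 250 bases before the start, on the strand of the gene, with the motif in capitals. The match describes the letters and no binding. Among other motifs looked for on either strand, the NFAT core GGAAA was in 14 of the 18 windows (61.3% of all windows). The E-box CAGCTG was in 7 of the 18 (16.3%) and the motif TGACGTCA in 0 (1.79%).
Myoz2, chr3:123034988-123035237, minus strand: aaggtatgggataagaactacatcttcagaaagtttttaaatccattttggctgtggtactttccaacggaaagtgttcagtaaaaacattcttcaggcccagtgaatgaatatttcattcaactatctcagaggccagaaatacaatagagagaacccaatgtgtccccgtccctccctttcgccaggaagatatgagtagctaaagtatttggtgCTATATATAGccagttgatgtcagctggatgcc
Casq2, chr3:102086165-102086414, plus strand: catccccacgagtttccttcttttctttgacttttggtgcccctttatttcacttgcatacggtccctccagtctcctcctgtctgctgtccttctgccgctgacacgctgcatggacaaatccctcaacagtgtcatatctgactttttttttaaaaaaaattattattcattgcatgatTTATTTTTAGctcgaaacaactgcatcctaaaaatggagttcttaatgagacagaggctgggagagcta

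Myoz2 encodes calsarcin-1, a Z-disc protein of slow fibres that binds calcineurin, and Casq2 the calcium store protein of slow fibres and heart. Myoz2 stood at 153, 27.4 and 29.6 CPM in CREX and at 242, 162 and 224 CPM in CR (log2 fold change -1.58, SE 0.73, edgeR adjusted p = 0.999). Casq2 stood at 29.9, 6.77 and 12.2 CPM in CREX and at 33.2, 41.3 and 37.5 CPM in CR (log2 fold change -1.20, SE 0.51, edgeR adjusted p = 0.999). In both genes the groups did not overlap, and CREX replicate 1 lay close under the lowest CR library.

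Calcium handling was the list most often higher in CREX. Of its 22 genes 19 had a fitted level above CR, as did 49.7% of all genes tested. The median log2 fold change was 0.20, or 0.11 without CREX replicate 2 and 0.26 without CREX replicate 1. Summed over the list, CREX replicates 1 to 3 held 45994, 57455 and 50105 CPM and the CR libraries 43005 to 51709 CPM. The groups thus overlapped, with CREX replicate 1 inside the CR range. Of the 22 genes, 2 were higher at an unadjusted p under 0.05 (1.91% of all genes), Rcan1 and Asph. Rcan1 (chr16:92391951-92466169), a feedback inhibitor of calcineurin whose internal promoter is driven by NFAT, had the smallest p of all genes higher in CREX. It stood at 75.6, 61.0 and 75.2 CPM in CREX and at 38.9, 40.9 and 38.3 CPM in CR, and all CREX libraries lay well above a narrow CR group. It averaged 70.6 ± 8.36 CPM (SD, n = 3) against 39.4 ± 1.39 CPM (SD, n = 3), a log2 fold change of 0.84 with an SE of 0.14 (edgeR unadjusted p = 0.000225, adjusted p = 0.999). DESeq2 on the same libraries gave an adjusted p of 0.00116, the smallest of its calls, and DESeq2 on all muscle groups one of 0.0562. Leaving out each library in turn, the log2 fold change stayed between 0.78 and 0.92.

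The CREX level of Rcan1 was near that of the freely fed mice, which stood at 59.4 to 84.3 CPM in the control and 52.2 to 104 CPM in the EX group, and it was the CR libraries that lay below all others. The log2 fold change of EX against control was 0.02 (SE 0.21), and the interaction of diet and training was 0.83 on the log2 scale (edgeR unadjusted p = 0.0104, with no gene under an adjusted p of 0.922). Rcan1 was picked by its CREX and CR values, which enter the interaction, so this unadjusted p is not independent of the choice. Asph, which among other products encodes junctin of the calcium release site, stood at 82.7, 121 and 117 CPM in CREX and at 78.2, 82.2 and 67.9 CPM in CR (log2 fold change 0.48, edgeR adjusted p = 0.999), with the lowest CREX library just above the highest CR library.

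RefSeq lists 2 promoters for Rcan1, and they are shown because calcineurin signalling reaches the gene through one of them. The counts are per gene, so that the start site in use was not resolved. Capitals mark the NFAT core GGAAA or its reverse complement, which 61.3% of all windows hold on either strand. The internal promoter held 3 matches and the distal one none.
Rcan1 internal promoter, chr16:92400079-92400328, minus strand: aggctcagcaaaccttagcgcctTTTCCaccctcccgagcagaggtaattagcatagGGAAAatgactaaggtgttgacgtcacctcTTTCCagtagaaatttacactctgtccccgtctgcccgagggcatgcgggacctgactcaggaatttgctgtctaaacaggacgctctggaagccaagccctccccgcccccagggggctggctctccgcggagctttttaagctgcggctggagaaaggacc
Rcan1 distal promoter, chr16:92466170-92466419, minus strand: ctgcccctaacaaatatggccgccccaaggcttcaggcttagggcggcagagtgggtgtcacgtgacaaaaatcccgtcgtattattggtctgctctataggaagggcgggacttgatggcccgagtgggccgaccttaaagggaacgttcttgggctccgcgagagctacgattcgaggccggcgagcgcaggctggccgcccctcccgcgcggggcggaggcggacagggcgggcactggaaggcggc

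In growth hormone, IGF and insulin signalling, of 24 genes tested, 16 had a fitted level above CR, 3 of them (Socs2, Irs1 and Igf1) at an unadjusted p under 0.05 (1.91% of all genes), none was lower at that threshold, and the median log2 fold change was 0.07, or -0.0029 without CREX replicate 3. Socs2 (chr10:95383903-95417321), which is induced by growth hormone and curbs its receptor, stood at 21.2, 41.2 and 17.4 CPM in CREX and at 6.93, 10.9 and 9.05 CPM in CR, without overlap. Its log2 fold change was 1.56 with an SE of 0.34 (edgeR unadjusted p = 0.00197, adjusted p = 0.999, DESeq2 adjusted p = 0.00447). Irs1 (chr1:82233105-82291439), the adaptor that carries the insulin and IGF-1 signal, stood at 29.4, 31.3 and 51.2 CPM in CREX and at 24.3, 17.0 and 18.1 CPM in CR, also without overlap (log2 fold change 0.91, SE 0.24, edgeR adjusted p = 0.999). Igf1 itself (named after its values were seen) stood at 12.3, 13.5 and 6.50 CPM in CREX and at 4.69, 5.69 and 8.06 CPM in CR, so that the groups overlapped (log2 fold change 0.80, edgeR adjusted p = 0.999).

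PPAR targets and fat oxidation had a fitted level below CR in most members, but CREX replicate 1 did not share this in the summed levels. The 20 PPAR targets had a median log2 fold change of -0.36, with 18 of 20 below 0 (50.3% of all genes). At an unadjusted p under 0.05, 2 were lower (1.74% of all genes) and 1 higher (1.91%). The median was -0.56 without CREX replicate 1 and -0.23 without CREX replicate 3. Summed over the PPAR targets, CREX replicates 1 to 3 held 4265, 2849 and 2100 CPM and the CR libraries 3343 to 4111 CPM. Acot1 (chr12:84009502-84017670), a thioesterase that releases free fatty acids from acyl-CoA, stood at 1.91, 0.944 and 0.714 CPM in CREX and at 5.84, 3.00 and 2.71 CPM in CR, without overlap. Its log2 fold change was -1.69 (SE 0.44, edgeR adjusted p = 0.999), and DESeq2 called it on all muscle groups (adjusted p = 0.00578) but not on the 2 groups alone (adjusted p = 0.0957). Acot1 and its neighbour Acot2 are near copies, so reads may have been split between them.

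Of 29 genes of fatty acid oxidation and uptake, 26 had a fitted level below CR, with a median log2 fold change of -0.29. This median was -0.62 without CREX replicate 1 and -0.16 without CREX replicate 2. Summed over the list, CREX replicates 1 to 3 held 3775, 2076 and 2126 CPM and the CR libraries 3340 to 3519 CPM. CREX replicate 1 thus lay above every CR library. Acsl3, which activates long-chain fatty acids, went the other way, with 18.7, 37.4 and 15.7 CPM in CREX and 8.99, 12.7 and 10.9 CPM in CR (log2 fold change 1.13, edgeR adjusted p = 0.999, and adjusted p = 0.0170 in DESeq2 on all muscle groups). Of the nuclear genes of the respiratory chain 81 of 81 tested lay below CR, where 50.3% of all genes did, with a median of -0.24 and 2 lower at an unadjusted p under 0.05, a share near the 1.74% of all genes. Without CR replicate 1 this median was -0.11. Summed over the respiratory chain list, CREX replicates 1 to 3 held 22365, 16554 and 19885 CPM and the CR libraries 20740 to 26136 CPM. CREX replicate 1 lay inside the CR range, so the fitted direction was not shared by every library. Atp5k, a subunit of ATP synthase, averaged 25.1 ± 2.06 CPM (SD, n = 3) in CREX and 34.0 ± 6.95 CPM (SD, n = 3) in CR, and Ndufb3 of complex I averaged 45.6 ± 8.29 CPM (SD, n = 3) and 60.7 ± 8.61 CPM (SD, n = 3). Both overlapped between the groups. The 13 genes of the mitochondrial genome had a median of -0.06 and none at that threshold, and the tricarboxylic acid cycle one of -0.17, with Idh2, the mitochondrial isocitrate dehydrogenase, at 278, 91.5 and 80.0 CPM in CREX and at 326, 326 and 389 CPM in CR. Summed over the tricarboxylic acid cycle, CREX replicates 1 to 3 held 8897, 6051 and 6282 CPM and the CR libraries 7894 to 8058 CPM. As in the slow fibre list, CREX replicates 2 and 3 held the lowest Idh2 values, and the part of slow and oxidative fibres in these lists was not tested.

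**Figure D3:**
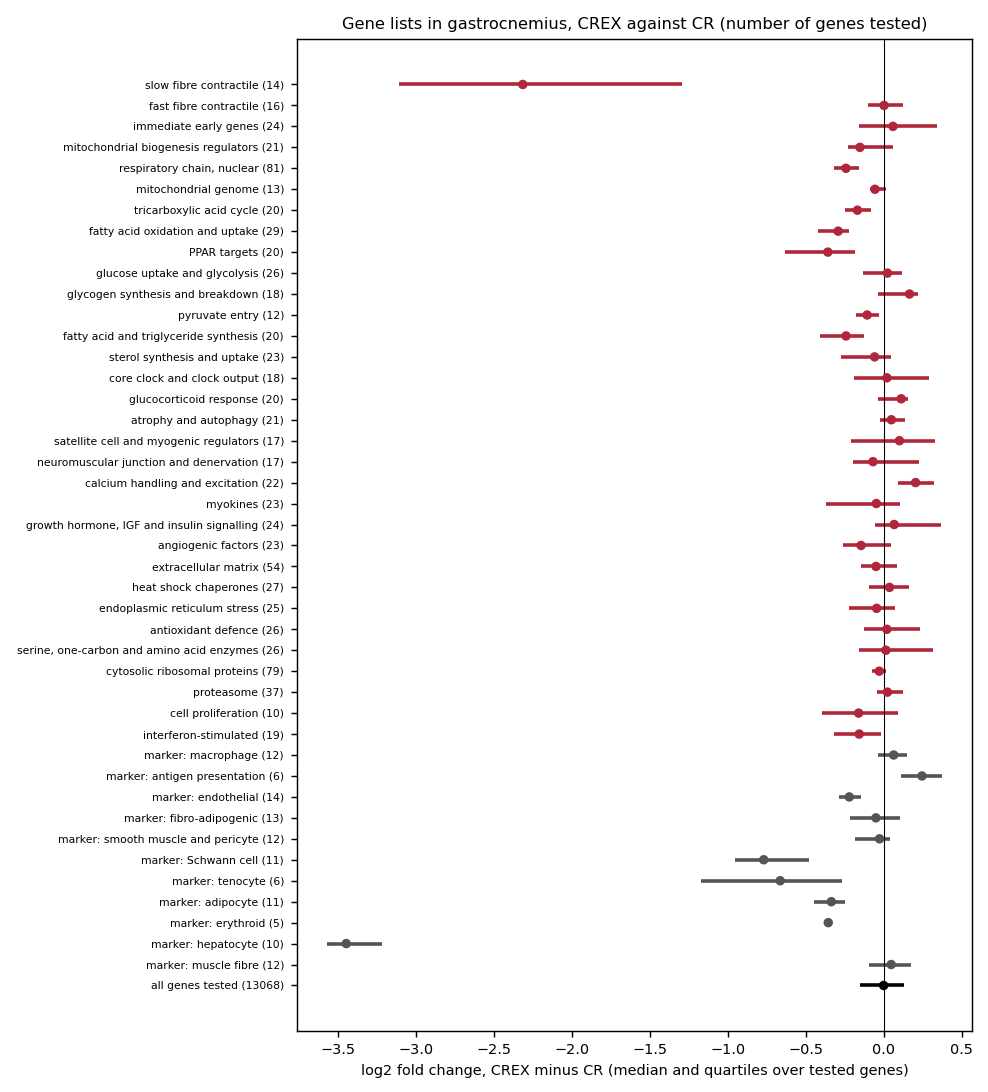
Median (point) and quartiles (bar) of the log2 fold change of CREX minus CR (x axis) over the tested genes of each list (y axis, number of genes in parentheses), with function lists in red, cell type markers in grey and all genes tested in black. The slow fibre list, at -2.32, and the hepatocyte markers, at -3.45, lie far from the other lists, whose medians stay between -0.77 and 0.24.

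**Figure D4:**
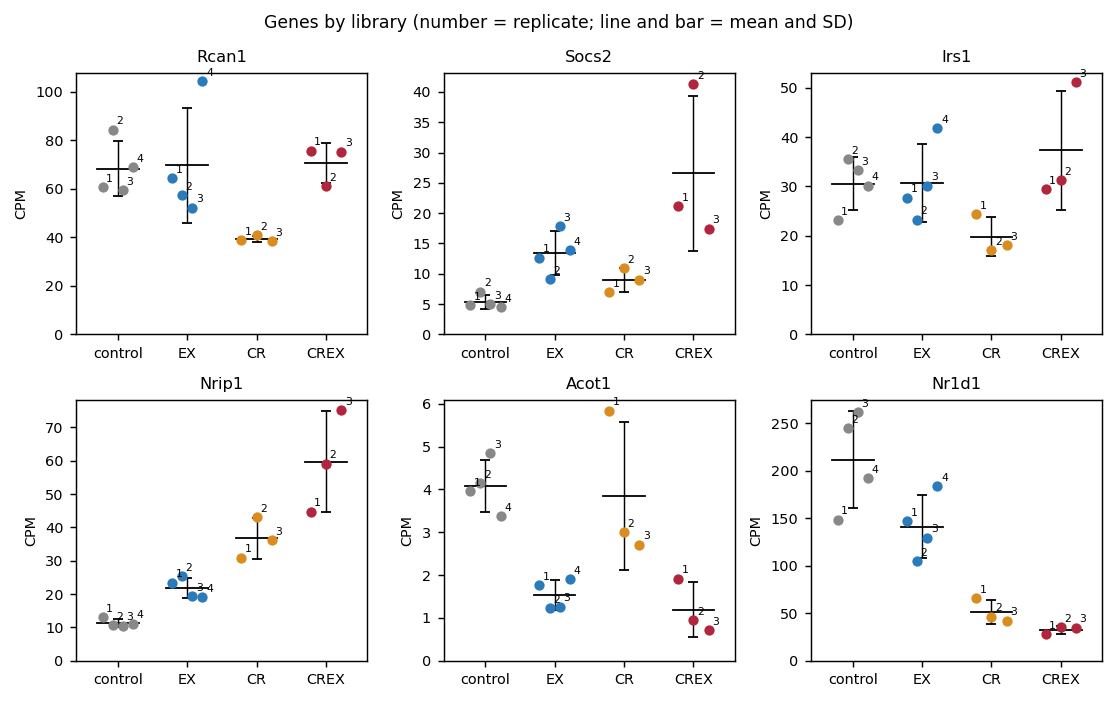
Levels of 6 genes (y axis, CPM from 0) in the control, EX, CR and CREX muscle libraries (x axis), with a point per library marked by its replicate number, a line at the mean and a bar for the SD. Rcan1, Socs2, Irs1 and Nrip1 are higher and Acot1 and Nr1d1 lower in all 3 CREX libraries than in all 3 CR libraries.

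The 14 genes known for their response to training were looked up whatever their values. Nr4a3, an orphan nuclear receptor induced by exercise, is described with the immediate early genes, and Myh7 and Myh2 are given above. Of the other 11, Mstn, which restrains muscle growth, had an unadjusted p under 0.05, with 35.5, 89.8 and 68.8 CPM in CREX and 38.5, 32.8 and 30.2 CPM in CR (log2 fold change 0.93, edgeR adjusted p = 0.999), and CREX replicate 1 overlapped with the CR group. Ppargc1a, which encodes PGC-1α, stood at 38.5, 19.0 and 77.6 CPM in CREX and at 24.9, 37.3 and 27.9 CPM in CR, with CREX libraries both the highest and the lowest among the 6 (log2 fold change 0.58, edgeR adjusted p = 0.999). Slc2a4, the insulin-responsive glucose transporter GLUT4, was level, at 546 ± 17.8 CPM (SD, n = 3) in CREX and 535 ± 16.8 CPM (SD, n = 3) in CR (log2 fold change 0.02, SE 0.14).

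Hk2, which traps glucose in the fibre, Ucp3, a mitochondrial carrier, Vegfa, the main angiogenic factor, and Tfrc, the transferrin receptor, had log2 fold changes of 0.35, 0.22, 0.08 and 0.37. Pdk4, which blocks pyruvate oxidation, Cpt1b, which brings fatty acids into mitochondria, Angptl4, an inhibitor of lipoprotein lipase, and Fndc5, the precursor of irisin, had log2 fold changes of -0.14, -0.18, -0.39 and -0.82. All 8 overlapped between the groups. Of the 23 myokines tested, 2 lay below CR without overlap (3.42% of all genes), both also lower at an unadjusted p under 0.05 (1.74%), and 3 were higher at that threshold (1.91%), namely Mstn, Igf1 and Tgfb2, the last named after its values were seen. Bdnf, the neurotrophin, stood at 0.250, 0.123 and 0.198 CPM in CREX and at 0.614, 0.632 and 0.458 CPM in CR, from 14 and 42 counts in all (log2 fold change -1.56, edgeR adjusted p = 0.999). Il15 (named after its values were seen), a cytokine made by muscle among others, stood at 4.12, 1.31 and 1.51 CPM in CREX and at 4.74, 4.90 and 4.31 CPM in CR (log2 fold change -1.01, edgeR adjusted p = 0.999).

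Among clock genes, 18 of which were tested with a median log2 fold change of 0.02, Nr1d1 and Dbp were lower at an unadjusted p under 0.05. Nr1d1, which encodes the repressor REV-ERBα, stood at 28.0, 35.3 and 34.9 CPM in CREX and at 66.0, 46.2 and 42.3 CPM in CR, without overlap (log2 fold change -0.66, SE 0.19, edgeR adjusted p = 0.999). Dbp, an output factor of the clock, stood at 23.8, 24.8 and 34.3 CPM in CREX and at 31.1, 50.7 and 49.0 CPM in CR, with overlap (log2 fold change -0.66, edgeR adjusted p = 0.999). Nr1d1 stood at 104 to 183 CPM in the EX and at 148 to 261 CPM in the control group, above every restricted library. Time of day at collection was not given in the sources used here.

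The named gene rule took the 12 genes with the smallest p in each direction among those past 1.5-fold at an unadjusted p under 0.05 and without overlap, 90 genes higher (0.689%) and 121 lower (0.926%) in all. None passed the edgeR test. Besides Rcan1 and Socs2, the higher ones included Setbp1, Shc2, B4galt1, Sbk2, Ikzf4, Pthlh, Trib2, Ret and Fgl2. Setbp1, a DNA-associated protein, stood at 14.9, 19.5 and 12.6 CPM in CREX and at 7.98, 6.64 and 7.68 CPM in CR, with every CREX library above 12 CPM and every CR library under 8 CPM (log2 fold change 1.07, SE 0.18, edgeR adjusted p = 0.999, DESeq2 adjusted p = 0.00447). Shc2, an adaptor of receptor tyrosine kinases, had a log2 fold change of 1.53, B4galt1, a galactosyltransferase, one of 0.77, and Sbk2, a muscle kinase, one of 0.87, and DESeq2 called all 3 (adjusted p = 0.00447, 0.0377 and 0.0377). Sbk2 averaged 22.1 ± 3.81 CPM (SD, n = 3) in CREX and 11.98 ± 1.97 CPM (SD, n = 3) in CR, both under the 35.8 to 71.1 CPM of the freely fed libraries.

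Pthlh, the parathyroid hormone related peptide, and Ret, the receptor of the GDNF family, were low but even within the groups. Pthlh stood at 1.17, 1.44 and 1.31 CPM in CREX and at 0.395, 0.514 and 0.535 CPM in CR (log2 fold change 1.42, SE 0.31, edgeR adjusted p = 0.999), from 96 and 36 counts in all. Ret averaged 2.94 ± 0.318 CPM (SD, n = 3) in CREX and 1.47 ± 0.221 CPM (SD, n = 3) in CR. Neither was called by DESeq2 (adjusted p = 0.374 and 0.334). Trib2, a pseudokinase, had a log2 fold change of 0.80 and Fgl2, a fibrinogen-like protein, one of 1.53, with 3.79, 5.13 and 10.1 CPM in CREX against 1.84, 2.05 and 2.63 CPM in CR.

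On the lower side, Tecrl (chr5:83278122-83355195), which encodes a reductase of the endoplasmic reticulum known from heart rhythm disease, had 0 counts in all 3 CREX libraries and 59 counts in the CR libraries, at 0.965, 0.948 and 0.496 CPM. Against the level of 3 counts per CREX library it was at least 6.57-fold lower in CREX (edgeR unadjusted p = 0.000181, adjusted p = 0.999, DESeq2 adjusted p = 0.00198). Tecrl passed the filter on low counts through the CR libraries alone, so its direction was fixed beforehand. In the EX group 2 of 4 libraries were at 0 too, and the control libraries stood at 0.181 to 0.291 CPM, so the gene was highest in CR. P2ry14, a receptor of UDP-sugars, stood at 0.499, 0.411 and 0.278 CPM in CREX and at 1.32, 0.988 and 1.64 CPM in CR, with the CREX group the lowest of the 4 groups (log2 fold change -1.73, edgeR adjusted p = 0.999). Hnmt, which methylates histamine, averaged 1.80 ± 0.323 CPM (SD, n = 3) in CREX and 3.58 ± 0.167 CPM (SD, n = 3) in CR (log2 fold change -0.99, edgeR adjusted p = 0.999).

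Most other genes of the lower set are enzymes and plasma proteins of the liver, and some, such as Bhmt, differed widely between libraries of a group. They include Rgn, Gnmt, Mug1, Bhmt, Gsta3, Cyp2d10 and Pon1, and DESeq2 called Rgn, Gnmt, Mug1, Gsta3 and Cyp2d10 together with Tecrl, Tpm3, Ttc36 and Gm31251. Bhmt, which remethylates homocysteine in liver, stood at 0.208, 0 and 0 CPM in CREX and at 0.658, 3.28 and 2.94 CPM in CR. Rgn, a calcium-binding lactonase of liver, held 2 counts in the CREX and 98 in the CR libraries, all 2 in CREX replicate 1. Like Tecrl, Bhmt and Rgn passed the filter on low counts through the CR libraries, so their direction was fixed beforehand. Gnmt, a liver methyltransferase that burns surplus methyl groups, stood at 2.66, 1.15 and 1.39 CPM in CREX and at 4.30, 5.93 and 7.48 CPM in CR, against 0.832 to 2.17 CPM in the freely fed libraries.

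The 10 hepatocyte markers listed for the check of other cell types went the same way in the same libraries, so they are no separate check. All 10 had a fitted level below CR (50.3% of all genes), with a median log2 fold change of -3.45, which was -8.27 without CREX replicate 1 and -2.88 without CREX replicate 3. At an unadjusted p under 0.05, 5 were lower (1.74% of all genes), and in 2, Apoa1 and Mup3, the groups did not overlap (3.42%). Only 2 of the 10 markers passed the filter on low counts in EX against control. The other markers passed it here through restricted libraries where they were high, mostly those of CR. Their direction was thus largely fixed beforehand, and the number of lower markers is not support for a difference. Alb (named after its values were seen) stood at 34.9, 0.164 and 0.278 CPM in CREX and at 27.9, 153 and 144 CPM in CR, while the control and EX libraries held 0 to 3.21 CPM. Summed over the 10 markers, the level was 87.6, 7.10 and 13.1 CPM in CREX, 64.0, 275 and 287 CPM in CR, 6.81 to 11.3 CPM in control and 2.98 to 16.9 CPM in EX. No marker was at 0 in CREX replicate 1 or in the CR libraries, 3 were at 0 in CREX replicate 2 and 5 in CREX replicate 3. The summed level overlapped between the groups, CREX replicate 1 lying above CR replicate 1. Bhmt and Gnmt were lower in CREX replicate 1 than in every CR library, but the named gene rule required this of them. The part of hepatocyte RNA in the liver enzymes named above was not tested. Mup3 belongs to a family of near-identical genes, among which reads cannot be assigned with certainty.

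Markers of other cells differed less. The 11 Schwann cell markers had a median log2 fold change of -0.77, with CR replicate 3 at a summed 309 CPM and the other 5 libraries at 58.3 to 131 CPM. The 6 tenocyte markers tested had a median of -0.67 and the 11 adipocyte markers one of -0.34, with all 11 lower and none at an unadjusted p under 0.05. The adipocyte median was -1.91 without CREX replicate 1 and 0.0018 without CREX replicate 3. Summed adipocyte levels overlapped, at 2312 to 2694 CPM in CREX and 2006 to 3335 CPM in CR. Endothelial markers (median -0.22 over 14 genes) and erythroid markers (median -0.36 over 5) lay below 0, macrophage markers (0.06 over 12) and antigen presentation (0.24 over 6) above it. Endothelial markers summed to 623, 334 and 364 CPM in CREX replicates 1 to 3 and to 508 to 552 CPM in CR. Fibro-adipogenic (-0.05 over 13), smooth muscle and pericyte (-0.03 over 12) and muscle fibre markers (0.05 over 12) lay near 0, and no neutrophil or B and T cell marker passed the filter on low counts.

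CREX replicate 3 stood apart in genes of the acute response. Immediate early genes are switched on within minutes by contraction, stress or handling, and of the 24 tested none had an unadjusted p under 0.05 and their median log2 fold change was 0.06. Nr4a3 stood at 264 CPM in CREX replicate 3 and at 2.13 to 4.52 CPM in the other 5 libraries. In the same library Egr1, an early transcription factor, stood at 125 CPM against 2.34 to 3.99 CPM, and Nr4a1, a relative of Nr4a3, at 755 CPM against 99.1 to 183 CPM. Socs3, the brake of cytokine signalling, stood at 218 CPM against 1.37 to 3.596 CPM, and the metallothionein genes Mt2 and Mt1 at 283 and 449 CPM against 8.18 to 15.6 and 26.4 to 63.5 CPM (Egr1, Nr4a1 and Socs3 named after their values were seen). Summed over the immediate early list, CREX replicate 3 held 1556 CPM and the other 13 muscle libraries 396 to 654 CPM.

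The log2 fold changes of these genes therefore belonged to this library. Nr4a3 had one of 4.84 (SE 2.04, edgeR adjusted p = 0.999) with all libraries and one of -0.30 without CREX replicate 3, and the values for Egr1 were 3.73 and -0.22 and those for Socs3 4.93 and -0.70. Mt2 had 3.11 with it and 0.12 without it, and Mt1 one of -0.39 without it. Whether these transcripts reflect the time to dissection was not tested.

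**Figure D5:**
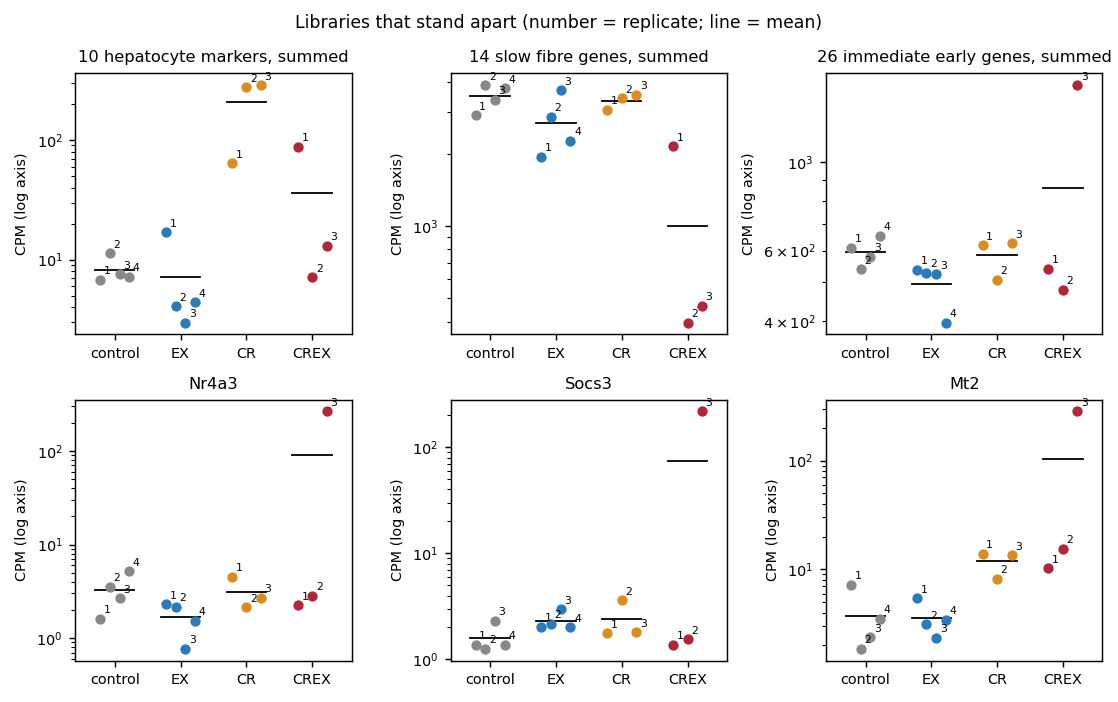
Summed levels of the hepatocyte markers, slow fibre genes and immediate early genes (top row) and levels of Nr4a3, Socs3 and Mt2 (bottom row) on a log axis in CPM (y axis), per library of the control, EX, CR and CREX muscle groups (x axis, number for the replicate, line for the mean). CR replicates 2 and 3 are highest in hepatocyte markers, CREX replicates 2 and 3 lowest in slow fibre genes, and CREX replicate 3 highest in the other 4 panels.

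The remaining lists gave few values past the threshold. Of 54 extracellular matrix genes, 1 was higher (Col6a3, a chain of collagen VI, log2 fold change 0.74) and 1 lower (Fmod, the collagen-binding fibromodulin, -1.34) at an unadjusted p under 0.05, and the median was -0.05. Tbc1d1, a brake on GLUT4 transport that exercise signals release, was the 1 of 26 genes of glucose uptake and glycolysis at that threshold, with 83.7, 93.1 and 59.0 CPM in CREX and 47.4, 40.9 and 58.1 CPM in CR (log2 fold change 0.68, edgeR adjusted p = 0.999). Ppargc1b, a coactivator related to PGC-1α, was lower at an unadjusted p of 0.0342 by edgeR (log2 fold change -0.64, adjusted p = 0.999), the 1 of 21 mitochondrial biogenesis regulators to be so. Glycogen genes (median 0.16 over 18), heat shock chaperones (0.04 over 27), antioxidant defence (0.02 over 26), cytosolic ribosomal proteins (-0.03 over 79), proteasome subunits (0.02 over 37), interferon-stimulated genes (-0.16 over 19) and angiogenic factors (-0.15 over 23) held 0 DEGs by edgeR, and 1 of these genes, in the glycogen list, had an unadjusted p under 0.05. DESeq2 called none of them.

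Training without restriction was compared in the EX and control libraries, none of which enters the CREX and CR comparison. Of 12907 genes tested, edgeR called 3 higher (0.0232%) and 7 lower (0.0542%), namely Aqp4, Nrip1 and Socs2, and Acot1, Acot2, Arntl, Ehhadh, Gabarapl1, Ppp1r15a and Tmem140. These calls depended on the fit. In 1 edgeR fit on all muscle groups 0 genes were called, with the replicate number as a block 1, and with a library left out between 1 (without control replicate 3) and 19 (without control replicate 4). At an unadjusted p under 0.05 without a fold minimum 3.14% of genes were higher and 3.71% lower, and the EX libraries lay wholly above control in 2.01% of genes and wholly below in 2.21%. Of the 211 genes without overlap described above, 176 were tested here as well and 124 of them (70.5%) had the same sign, as had 51.3% of all 12645 genes tested in both comparisons. In 29 of the 176 the sign was the same at an unadjusted p under 0.05, in 5 it was the opposite at that threshold, and 3 were DEGs of EX against control, Socs2, Nrip1 and Acot1. Slow fibre genes had a median of -0.58 in EX against control too, with EX replicate 1 the lowest.

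Socs2 stood at 12.7, 9.13, 17.9 and 13.9 CPM in EX and at 4.78, 7.03, 4.98 and 4.49 CPM in control, without overlap (log2 fold change 1.33, SE 0.20, edgeR adjusted p = 0.0279). The interaction of diet and training on it was 0.25 on the log2 scale (edgeR unadjusted p = 0.566). Acot1 stood at 1.76, 1.22, 1.27 and 1.91 CPM in EX and at 3.96, 4.14, 4.84 and 3.37 CPM in control (log2 fold change -1.40, edgeR adjusted p = 0.0138), and its interaction was -0.28 (edgeR unadjusted p = 0.544). Nrip1, the corepressor RIP140 that holds back oxidative genes, stood at 19.0 to 25.4 CPM in EX and at 10.5 to 13.1 CPM in control (log2 fold change 0.94, edgeR adjusted p = 0.00991). In restricted mice it stood at 44.8, 59.1 and 75.1 CPM in CREX and at 30.9, 43.0 and 36.2 CPM in CR, without overlap but with the lowest CREX library close to the highest CR library (log2 fold change 0.69, SE 0.21, edgeR adjusted p = 0.999). Nrip1 was named after its values were seen.

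Whether training acted differently under restriction was tested in 1 edgeR fit over all 14 muscle libraries. None of 13610 genes passed an adjusted p under 0.05, the smallest being 0.922, and 669 had an unadjusted p under 0.05 (2.46% above and 2.45% below 0). DESeq2 called 4 genes in the same test, and edgeR called 182 without CREX replicate 1. The interactions of Tpm3 and Atp2a2 were -2.04 and -2.15 on the log2 scale (edgeR unadjusted p = 0.0453 and 0.0312), and that of Tnni1 was -3.08 (edgeR unadjusted p = 0.0578). These genes were picked by their CREX and CR values, which enter the interaction, so these p-values are not independent of the choice.

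In BAT of the same kinds of mice, with 4 CREX and 4 CR libraries, edgeR called 1 gene of 13112, Psat1 of serine synthesis, which was higher in CREX (0.00763%, log2 fold change 1.16, edgeR adjusted p = 0.0343, named after its value was seen). Socs2 averaged 14.5 CPM in CREX and 6.07 CPM in CR there (log2 fold change 1.25, edgeR unadjusted p = 0.0135), Nrip1 16.2 and 11.9 CPM (0.45, unadjusted p = 0.00233) and Asph 47.2 and 34.0 CPM (0.47, unadjusted p = 0.000566), each in the direction seen in muscle and none a DEG, where 3.72% of all genes were higher and 3.91% lower at an unadjusted p under 0.05. Rcan1 averaged 28.7 and 27.7 CPM (log2 fold change 0.06). Other genes named in muscle are not described in BAT, so these values do not show how often the tissues went the same way. The difference of the training effect between muscle and BAT passed the test in 0 of 14308 genes by edgeR (smallest adjusted p = 0.218, 767 genes at an unadjusted p under 0.05, 1.75% above and 3.61% below 0) and in 6 by DESeq2.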

How the data were processed

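RNA-seq counts of gastrocnemius muscle from 3 CREX, 3 CR, 4 EX and 4 control mice and of BAT were used, 1 library per mouse and tissue. The authors trimmed reads with trim-galore, aligned them to mm10 with STAR 2.7.10a and quantified them with RSEM (version 1.2.28 in the submitters' processing notes, another in the methods), and the deposited values are expected counts per gene symbol without normalization. The annotation used is not given in the sources used here. The table holds 24770 symbols, 27 of them dates and 2 duplicated, and none of these is named. Expected counts (6.11% not whole) were rounded to whole numbers, and groups were taken from the sample labels. The 14 muscle libraries held 23050918 to 23425284 counts, and limits from 3 counts cover counting error only.

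Each pair of groups was fitted on its own libraries with edgeR 4.0.16 (robust quasi-likelihood, TMM, filterByExpr) in R 4.3.3, and a DEG had to pass 1.5-fold and an adjusted p of 0.05. DESeq2 1.42.0, the tool of the authors, was an alternative. Standard errors are the log2 fold change divided by the square root of F. CPM values carry the TMM factors of all muscle libraries. Principal components used log2 CPM (prior count 2). Figures were drawn with matplotlib 3.10.9 in Python 3.11.15. The tests were tried on simulated data beforehand.

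The genes named were the 12 with the smallest unadjusted p in each direction among those past 1.5-fold without overlap (no DEG was found), the 2 with the smallest p in each list described, 14 training genes, and up to 5 called by DESeq2 or the interaction only. Not every such gene is named. Besides those marked in the text, Tnnt1, Tnnc1, Myl2, Myoz2, Casq2, Mb, Myh4, Ttc36 and Gm31251 and the DEGs of EX against control fall outside this rule and were named after their values were seen. The members and lists were chosen with earlier results of these data known. Alternatives were DESeq2 with 2 or with all muscle groups, RLE factors, no filter, at least 10 counts in every library, 1 fit on all groups, a replicate block, no fold minimum, unadjusted p and each library left out. Gene coordinates and promoters are from RefSeq (GRCm38.p6).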

Additional observations from a re-analysis of the deposited data

How the results depend on the processing

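For CREX against CR in muscle, edgeR gave 0 DEGs with RLE factors, without the filter, with at least 10 counts per library, in 1 fit on all groups, without a fold minimum and with the replicate block. DESeq2 gave 17 on these libraries and 34 on all muscle groups, the unadjusted p gave 311, and leaving out each library gave 0 to 99, the 99 without CREX replicate 1. The cause of the difference between the tools was not tested. For EX against control (10 DEGs), DESeq2 gave 52, no filter 31, 1 fit on all groups 0, the replicate block 1, the unadjusted p 221 and leaving out each library 1 to 19. For the interaction (0), DESeq2 gave 4, the unadjusted p 669 and leaving out each library 0 to 182. For BAT (1), DESeq2 gave 30, no filter 3, the replicate block 51, the unadjusted p 259 and leaving out each library 0 to 5. For the difference between tissues (0), DESeq2 gave 6, no filter 1, the replicate block 10, the unadjusted p 767 and leaving out each library 0 to 152, the highest again without CREX replicate 1. The share of the first principal component ran from 68.7% to 77.0% with each library left out.

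Same-numbered CREX and CR muscle libraries deviated from their group means with correlations of -0.40, 0.03 and -0.32, and none correlated best with its own number. In EX and control muscle the correlations were 0.19, -0.04, 0.21 and -0.27, and in CREX and CR BAT 0.39, -0.16, 0.22 and -0.11. There, replicates 1 and 3 correlated best with their own number in each tissue. The labels give no pairing and so few correlations cannot decide it, and the main tests were unpaired.

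Over 948 pairs of a named gene and an alternative, 878 kept direction and side of the threshold, 54 passed it where the main test had not, and 16 changed sign. The log2 fold change of Slc2a4 was -0.00332 with at least 10 counts in every library. With each library left out, the log2 fold change ran from -0.00117 to 0.044 for Slc2a4, from -0.13 to 0.34 for Vegfa, from -0.49 to 0.24 for Pdk4, from -0.74 to 0.14 for Angptl4, from -0.040 to 0.64 for Tfrc, from -0.064 to 0.94 for Ppargc1a, from -0.013 to 0.54 for Hk2, from -0.30 to 5.41 for Nr4a3, from -0.22 to 4.29 for Egr1, from -0.70 to 5.51 for Socs3, from -0.39 to 2.50 for Mt1 and from -0.41 to 1.57 for Nr4a1. Of 559 pairs of a list and an alternative, the median moved by no more than the SD between replicates in 519 and by more in 40.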
